A study of Sus scrofa with 24 samples.

Results

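PDK4, UCP3, CPT1B and PPARGC1A are 4 genes whose products set which fuel muscle mitochondria burn, and their RNA was followed here in pig longissimus dorsi muscle from the embryo to the adult. They were chosen by symbol: every probe set of the Affymetrix Porcine Genome Array annotated with one of these 4 symbols and no other was taken, which gave 6 of the 23999 probe sets tested and 4 of the 6765 genes with a probe set of a single symbol. PDK4 and UCP3 have 2 probe sets each, and the brighter one by its mean over all arrays stands for the gene unless the other is named. CPT1B and PPARGC1A have 1 probe set each. The 24 arrays make up 8 groups of 3 RNA pools (a, b and c): German Landrace (DL) and Pietrain (Pi) pigs, in each breed at 35, 63 and 91 days of gestation (days post conception, dpc) and in adulthood. The labels name no treatment. The titles of the 35 dpc pools alone carry a K whose meaning is not known here, which bears on every comparison with that stage. The labels do not say how many animals went into a pool, of which sex, or how old the adults were, so the p-values below compare a difference only with the spread among pools, part of which may be technical.

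Muscle draws its energy from glucose or from fatty acids, and both routes meet at mitochondrial acetyl-CoA. CPT1B, the muscle form of carnitine palmitoyltransferase on the outer mitochondrial membrane, is the gate through which long-chain fatty acids enter. PDK4 is a kinase that switches off the pyruvate dehydrogenase complex and so spares glucose, and UCP3 is a carrier of the inner mitochondrial membrane whose RNA is known to rise with fatty acid supply. PPARGC1A (PGC-1alpha) is the transcriptional coactivator best known for raising mitochondrial and fatty acid oxidation genes in muscle.

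Values are log2 intensities per probe set. A difference of 1 is read as 2-fold; the sources used here do not state the log base, which was read from the range of the values. Levels are comparable between arrays for 1 probe set, not between probe sets. On each array the brightest of 23 control probe sets that have no target in the sample was taken as the background ceiling, which lay between 2.31 and 2.69; a value at or below it is not above background. A gene was called changed where the Benjamini-Hochberg adjusted p of limma, over all 23999 probe sets, was under 0.05.

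The arrays of a group correlated between 0.926 and 0.992, and no 2 were identical. The mean of 9 skeletal muscle markers lay between 10.76 and 11.46 in the 35 dpc pools and between 15.08 and 15.22 in the adults, and none of the 9 was at background in all pools of a group. The 6 neural markers measured had means of 11.62 to 11.95 in the 35 dpc pools and no more than 4.96 in any later pool. The mean of 5 adipocyte markers lay from 3.36 to 3.94 in 35 dpc pools and from 8.13 to 8.97 in adult ones, higher at each later stage in both breeds. Single adipocyte markers did not all follow this mean. ADIPOQ was at background in all pools of 35 and 63 dpc, and LEP in all pools of 91 dpc and of adult Pi. The mean of 5 connective tissue markers was 10.33 to 11.73 in all fetal pools and 6.95 to 8.21 in adults. The GAPDH 3′ minus 5′ difference, a measure of RNA integrity, was between 0.25 and 1.31 in the fetal pools and between -0.61 and -0.39 in the adult pools. The same difference for actin did not separate adults (2.28 to 2.59) from 35 dpc (2.12 to 2.68) and was 1.21 to 1.55 at 63 dpc and 1.41 to 2.99 at 91 dpc. The mean of 4 erythroid markers was 7.72 to 8.88 at 35 dpc against 3.32 to 5.15 for the adults, that of 4 leukocyte markers 2.31 to 2.69 against 4.61 to 6.33, and that of 6 endothelial markers 5.49 to 6.12 at 35 dpc, 8.08 to 9.02 at 91 dpc and 7.66 to 7.98 for the adults. These marker levels and the GAPDH measure move with stage. The GAPDH measure also separated the breeds at 35 dpc (0.52 to 0.80 in DL, 1.08 to 1.21 in Pi). In adults it did so as well (-0.46 to -0.39 in DL, -0.61 to -0.55 in Pi), while at 63 and 91 dpc the breeds overlapped. The part of the markers and of the GAPDH measure in the results below, on stage or on breed, was not tested. In bulk tissue, fewer cells of a type and less RNA per cell cannot be told apart.

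**Figure D1:**
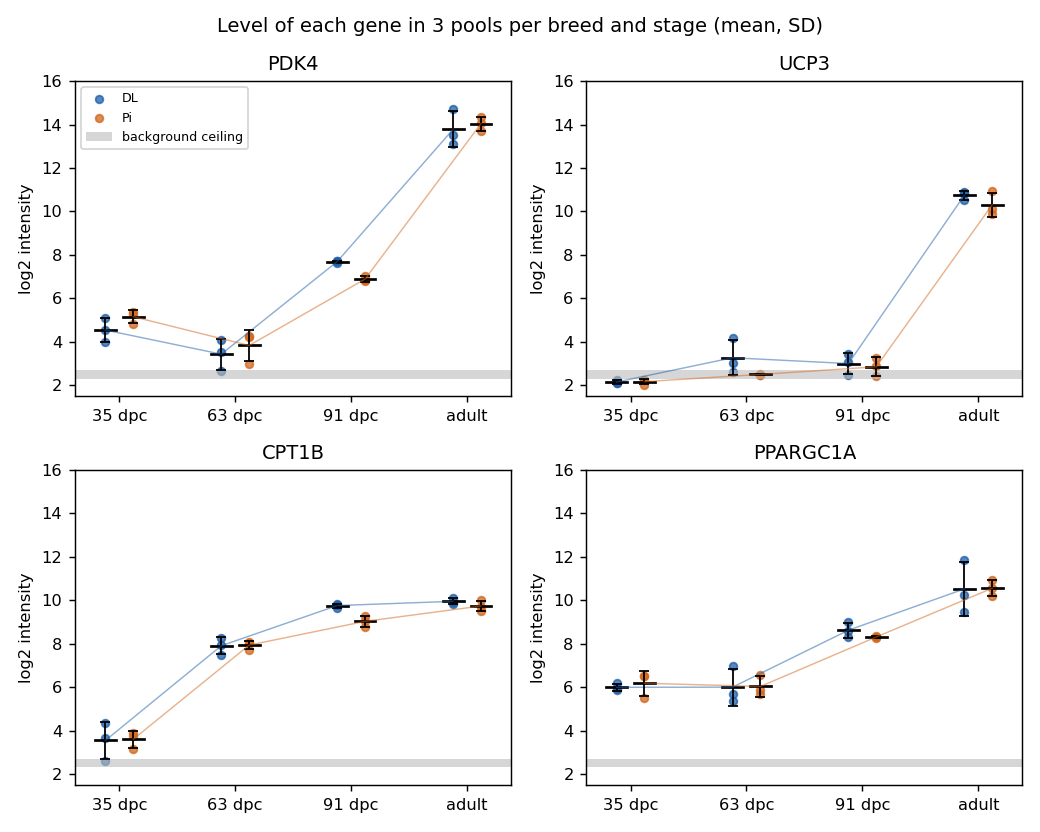
Level of each gene (vertical axis, log2 intensity) at each stage (horizontal axis), in DL (blue) and Pi (orange); dots are the 3 pools of a group, black bars the mean and SD, and the grey band spans the background ceilings of the 24 arrays. CPT1B climbs first, PPARGC1A and PDK4 climb from 63 dpc on, and UCP3 leaves the background region by a wide margin in the adults.

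The 4 genes differed in how their rise was spread over the stages. CPT1B was called higher only in the first 2 steps, while after 91 dpc PPARGC1A, PDK4 and UCP3 were called higher and CPT1B was not. Of its rise of 6.27 from 35 dpc to the adult, averaged over the breeds, CPT1B made 69.3% between 35 and 63 dpc, 23.5% between 63 and 91 dpc and 7.19% after 91 dpc. PPARGC1A made 55.0% of its rise of 4.45 between 63 and 91 dpc and 46.5% after 91 dpc. PDK4 made 40.4% of its rise of 9.06 between 63 and 91 dpc and 73.1% after it, having first fallen; its other probe set, described below, made 10.2% and 90.4% of a rise of 9.93. UCP3 was not above background at 35 dpc. Counted from the background floor there, its rise was at least 8.13, of which 93.4% came after 91 dpc. These shares are descriptions of the group means.

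PPARGC1A, the coactivator, was measured above background in all 24 pools. In DL its levels in pools a, b and c were 5.95, 5.85 and 6.17 at 35 dpc, 5.35, 5.68 and 6.96 at 63 dpc, 8.57, 8.98 and 8.30 at 91 dpc and 10.26, 11.86 and 9.44 in the adults. In Pi they were 6.51, 5.50 and 6.52 at 35 dpc, 5.85, 6.56 and 5.68 at 63 dpc, 8.34, 8.25 and 8.32 at 91 dpc and 10.19, 10.91 and 10.54 in the adults. The pools of 35 and 63 dpc were intermingled, every 91 dpc pool lay above them, and every adult pool lay above those of 91 dpc, with the widest spread among the DL adults (SD 1.23, against 0.357 in the Pi adults).

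Between 35 and 63 dpc PPARGC1A differed by -0.07 ± 0.35 (SE, 6 pools against 6; 95% interval -0.80 to 0.66; adjusted p = 0.936). It then rose 5.46-fold to 91 dpc (2.45 ± 0.35, adjusted p = 4.87e-05) and another 4.20-fold to the adult (2.07 ± 0.35, adjusted p = 4.82e-05). Both rises were seen in each breed with no overlap of pools, at 2.62 and 1.90 in DL and at 2.28 and 2.24 in Pi. The DL rise after 91 dpc had an adjusted p of 0.0037, and of 0.0845 when only those 2 groups were fitted.

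CPT1B, the entry gate for fatty acids, was low only at 35 dpc. In DL its pools a, b and c measured 3.68, 4.34 and 2.62 at 35 dpc, 7.95, 7.48 and 8.28 at 63 dpc, 9.82, 9.78 and 9.65 at 91 dpc and 9.93, 10.09 and 9.82 in the adults. In Pi they measured 3.74, 3.90 and 3.14, then 8.06, 7.72 and 8.01, then 9.04, 8.75 and 9.28, and 9.70, 9.99 and 9.51 in the adults. All 24 were above the ceiling of their array. The stages were separate up to 91 dpc in both breeds; from 91 dpc to the adult the DL pools overlapped and the Pi pools did not.

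CPT1B rose 20.3-fold from 35 to 63 dpc (4.35 ± 0.22, adjusted p = 1.6e-11), by 4.36 in DL and 4.33 in Pi. It rose 2.77-fold more from 63 to 91 dpc (1.47 ± 0.22, adjusted p = 0.000102). The change after 91 dpc was 0.45 ± 0.22 (95% interval -0.02 to 0.92) and did not pass, at an adjusted p of 0.0941. It did pass at 0.00882 when only the 4 groups compared were fitted. An exact two-sided permutation of the stage labels within each breed gave p = 0.01, not adjusted over probe sets. The smallest p that its 400 arrangements allow is 0.005. In limma, without DL 35 dpc pool b, the change passed at an adjusted p of 0.0454, and without pool c of that group at 0.0259. Over the same first step, the neural markers went from 11.62 or more to no more than 4.96, and their part was not tested.

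PDK4, the brake on pyruvate oxidation, was the only one of the 4 genes called lower in any step of the deposited values. In DL its pools a, b and c measured 5.12, 3.99 and 4.53 at 35 dpc, 2.67, 4.09 and 3.55 at 63 dpc, 7.65, 7.72 and 7.72 at 91 dpc and 13.52, 14.71 and 13.12 in the adults. In Pi they measured 4.83, 5.28 and 5.37, then 2.997, 4.27 and 4.24, then 6.78, 7.02 and 6.86, and 14.34, 14.09 and 13.69 in the adults. The 63 dpc pools were lowest, overlapping the 35 dpc pools in DL and not in Pi, while the 91 dpc and adult pools each stood clear of all younger ones.

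From 35 to 63 dpc PDK4 fell by 1.22 on the log2 scale (SE 0.30, adjusted p = 0.00229). It then rose 12.6-fold to 91 dpc (3.66 ± 0.30, adjusted p = 7.06e-08) and 98.4-fold from 91 dpc to the adult (6.62 ± 0.30, adjusted p = 1.53e-12). Within breeds the early fall was -1.33 in Pi (adjusted p = 0.0176) and -1.11 in DL, which did not pass (adjusted p = 0.0514). The call in Pi was lost without its 35 dpc pool b (adjusted p = 0.0525), its 35 dpc pool c (0.0616) or its 63 dpc pool a (0.119, change -0.91).

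The second PDK4 probe set placed the rise later. It measured between 2.37 and 2.70 in all 12 pools of 35 and 63 dpc, 3.10, 3.20 and 5.61 in the DL pools of 91 dpc, 3.63, 3.001 and 2.50 in the Pi pools of 91 dpc, and 11.57 to 13.20 in the 6 adults. The early values lie just above the background ceiling. The 5.61 came from DL 91 dpc pool c, whose 3′ minus 5′ differences were 2.99 for actin and 1.16 for GAPDH. In pools a and b these were 1.42 and 1.41 for actin and 0.28 and 0.25 for GAPDH, and their part was not tested. The second probe set changed by -0.05 from 35 to 63 dpc (adjusted p = 0.957) and by 1.01 ± 0.35 from 63 to 91 dpc (adjusted p = 0.0531). From 91 dpc to the adult it rose by 8.97 ± 0.35 (adjusted p = 2.02e-13). The large rise after 91 dpc was therefore measured by both probe sets, while the early fall and the call between 63 and 91 dpc rest on the brighter one.

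UCP3, the inner membrane carrier, was near background before birth and bright in the adult. In DL its brighter probe set measured 2.24, 2.11 and 2.11 in pools a, b and c at 35 dpc, 3.02, 2.62 and 4.17 at 63 dpc, 2.47, 3.45 and 3.08 at 91 dpc and 10.87, 10.86 and 10.52 in the adults. In Pi it measured 2.03, 2.24 and 2.24, then 2.52, 2.50 and 2.48, then 3.27, 2.41 and 2.88, and 9.88, 10.92 and 10.11 in the adults. None of the 6 pools of 35 dpc was above the ceiling of its array; all 12 of 63 and 91 dpc were, though several, such as the Pi pools of 63 dpc, lay within the span of the ceilings. The lowest adult pool measured 9.88 and the highest fetal pool 4.17.

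UCP3 was 194-fold higher in the adult than at 91 dpc (7.60 ± 0.24, adjusted p = 1.04e-14), by 7.75 in DL and 7.45 in Pi. The other probe set gave 7.34 ± 0.26 (adjusted p = 5.77e-14): its 18 fetal pools lay between 2.16 and 3.78 and its 6 adult pools between 9.36 and 10.54. Only 8 of those 18 fetal pools, and 3 of the 6 at 91 dpc, were above the ceiling, so that difference is set largely against background. Between 63 and 91 dpc UCP3 differed by 0.04 ± 0.24 (95% interval -0.46 to 0.54). From 35 to 63 dpc the mean of the brighter probe set rose by at least 1.41-fold, with the 35 dpc side taken at the background floor. The fitted change was 0.72 ± 0.24 (adjusted p = 0.0182). It was 1.12 in DL (adjusted p = 0.0151) and 0.33 in Pi, which did not pass (adjusted p = 0.548). The call over both breeds was lost without DL 63 dpc pool c, the highest of its group (0.50, adjusted p = 0.053), and the other probe set gave 0.03 (adjusted p = 0.964).

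**Figure D2:**
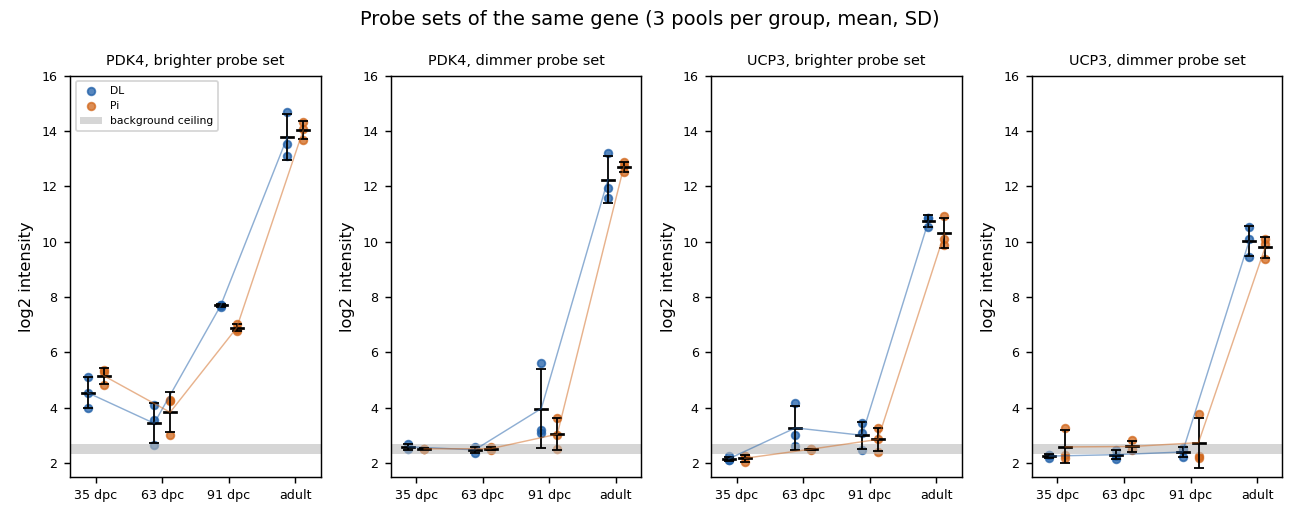
The 2 probe sets of PDK4 and of UCP3 (vertical axes, log2 intensity) by stage, with pools as dots, the mean and SD as black bars and the background ceilings as a grey band. Both probe sets of each gene are high in the adults; for PDK4 the brighter one is already at 6.78 or more in every pool of 91 dpc, where the dimmer one spans 2.50 to 5.61.

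The count of members called can be set beside all probe sets. From 35 to 63 dpc 2 of the 4 genes were higher and 1 lower, where 22.3% of all probe sets were higher and 22% lower. From 63 to 91 dpc 3 were higher and none lower (also at an unadjusted p under 0.05), against 8.88% and 9.4%. From 91 dpc to the adult 3 were higher and none lower (also unadjusted), against 30.8% and 26.6%. Within DL 2, 3 and 3 of the 4 passed in the 3 steps, where 32.2%, 10.8% and 45.4% of all probe sets did so in either direction, and within Pi 2, 3 and 3 passed, against 37.4%, 11.6% and 47.8%.

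The deposited columns share exactly the same set of values, so a change common to most transcripts has been removed from them. When each array was instead shifted to the mean of its 27 hybridisation control probe sets, the median change over all probe sets was -0.81 in the first step, -0.15 in the second and -0.14 in the third, and 8.73% were then higher and 64.9% lower from 35 to 63 dpc, 5.83% and 13% from 63 to 91 dpc, and 23.2% and 35% after 91 dpc. Relative to that median the first-step changes were -1.22 for PDK4, 0.72 for UCP3, 4.34 for CPT1B and -0.07 for PPARGC1A. On the shifted scale itself UCP3 reversed to -0.09 in the first step (adjusted p = 0.782) and PPARGC1A passed as lower at -0.88 (adjusted p = 0.0336), while the later steps of all 4 genes, averaged over the breeds, stayed on the same side of the threshold.

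**Figure D3:**
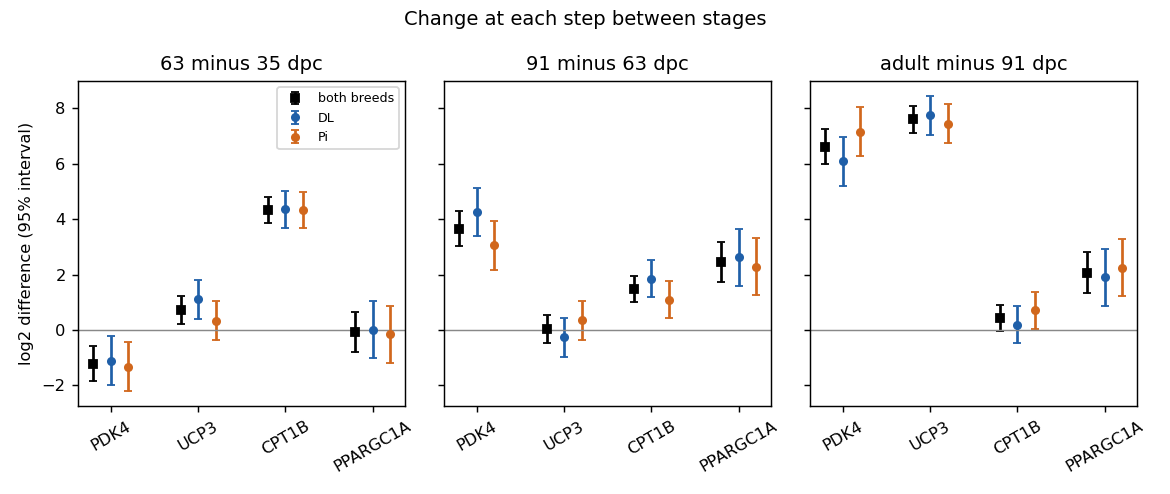
Change of each gene at each step (vertical axis, log2 difference with its 95% interval from limma) for the mean of both breeds (black squares), DL (blue) and Pi (orange). CPT1B has the largest rise of the 4 in the first step at 4.35, PDK4 in the second at 3.66 and UCP3 in the third at 7.60.

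The order of the 8 groups was similar for PDK4 and PPARGC1A, with Pi adults highest (mean 14.04 and 10.55) and DL adults next (13.78 and 10.52), followed by DL and then Pi at 91 dpc. The adult groups of the breeds overlapped in both genes. Below them PDK4 ran from Pi 35 dpc (5.16) over DL 35 dpc (4.54) and Pi 63 dpc (3.83) to DL 63 dpc (3.43), each neighbour overlapping the next. For PPARGC1A the 4 groups of 35 and 63 dpc spanned only 5.99 to 6.18 and all overlapped their neighbours. For CPT1B the order was DL adult (9.95), DL 91 dpc (9.75), Pi adult (9.73), Pi 91 dpc (9.03), Pi 63 dpc (7.93), DL 63 dpc (7.90), Pi 35 dpc (3.60) and DL 35 dpc (3.54); the first 3 overlapped one another in turn and Pi 91 dpc stood apart. For UCP3 DL adults (10.75) and Pi adults (10.30) overlapped, and below them DL 63 dpc (3.27), DL 91 dpc (3.002), Pi 91 dpc (2.85) and Pi 63 dpc (2.50) each overlapped the next, above both groups of 35 dpc.

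None of the 4 genes differed between the breeds at the threshold at any stage. The adult differences, Pi minus DL, were 0.26 for PDK4 (95% interval -0.62 to 1.14), -0.44 for UCP3 (-1.15 to 0.26), -0.22 for CPT1B (-0.88 to 0.45) and 0.03 for PPARGC1A (-0.999 to 1.06). The intervals leave room for a level a little over 2-fold higher in Pi for PDK4 and PPARGC1A, and lower for UCP3. For CPT1B the interval stays under 2-fold. A like level in the breeds is therefore not shown. At an unadjusted p under 0.05 there were 0 of 4 at 35 dpc, 1 of 4 at 63 dpc (UCP3), 1 of 4 at 91 dpc (CPT1B) and 0 of 4 in adults, where 4.03%, 1.37%, 2.72% and 6.33% of all probe sets passed the adjusted threshold.

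The breed differences farthest from 0 were those of PDK4 and CPT1B at 91 dpc and of UCP3 at 63 dpc, each with all Pi pools below all DL pools. For CPT1B the Pi pools reached 9.28 at most and the DL pools began at 9.65, a difference of -0.73 (95% interval -1.39 to -0.06; adjusted p = 0.286). For PDK4 the Pi pools reached 7.02 and the DL pools began at 7.65, a difference of -0.81 (-1.69 to 0.07; adjusted p = 0.412), and the other probe set, whose pools overlapped, gave -0.93 (adjusted p = 0.431). UCP3 at 63 dpc differed by -0.77 (-1.47 to -0.06, adjusted p = 0.343), with its Pi pools within the span of the ceilings. Its other probe set went the other way, at 0.30 (adjusted p = 0.966). That probe set was above the ceiling in only 1 of 3 DL pools there. With 3 pools against 3, an adjusted p that misses the threshold does not show that the breeds were alike.

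The steps themselves also did not differ between breeds at the threshold. The interaction, the Pi step minus the DL step, was -1.21 for PDK4 from 63 to 91 dpc (95% interval -2.45 to 0.04; adjusted p = 0.601) and 1.07 after 91 dpc (-0.18 to 2.32; adjusted p = 0.415). For CPT1B it was -0.75 and 0.51 in those steps, for UCP3 -0.78 in the first step, and for PPARGC1A between -0.34 and 0.34 in all 3. None of the 12 interactions of limma passed, also not at an unadjusted p under 0.05, where 3.3%, 0.0917% and 2.66% of all probe sets passed in the 3 steps after adjustment.

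**Figure D4:**
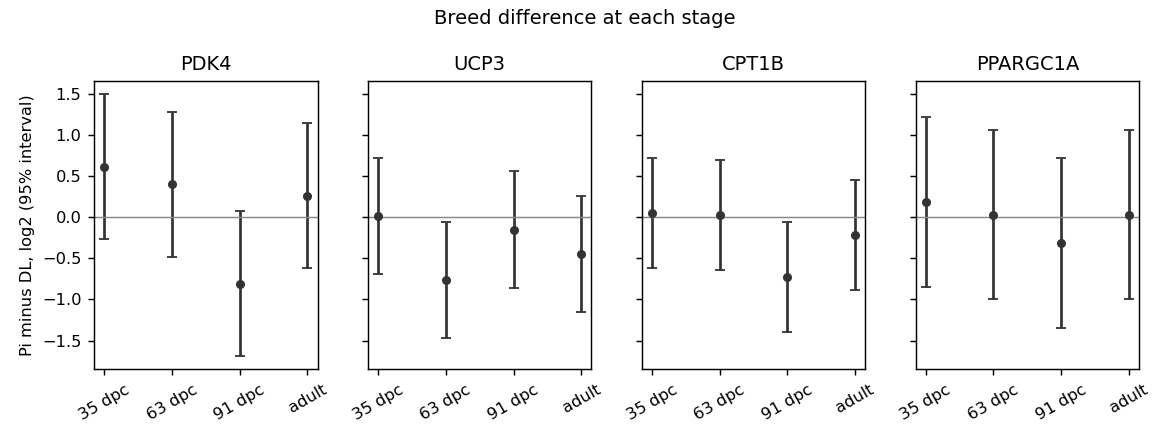
Pi minus DL at each stage (vertical axis, log2 difference with its 95% interval from limma) for each gene. Intervals of UCP3 at 63 dpc and of CPT1B at 91 dpc lie below 0 before adjustment over all probe sets; every other interval spans 0.

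Within groups the 4 genes varied together only in part. After removing the group means, the deviations of the 24 pools correlated at 0.50 between UCP3 and PPARGC1A and at 0.48 between PDK4 and PPARGC1A. The other pairs lay between -0.19 (PDK4 and CPT1B) and 0.35 (UCP3 and CPT1B). Most values differed between the 18 fetal and the 6 adult pools. PDK4 and PPARGC1A gave 0.20 and 0.85, UCP3 and PPARGC1A 0.54 and 0.50, and PDK4 and CPT1B -0.36 and 0.62. UCP3 and CPT1B gave 0.30 and 0.80, CPT1B and PPARGC1A -0.09 and 0.63, and PDK4 and UCP3 -0.04 and 0.19. For PDK4 and PPARGC1A, DL adult pool b was the highest of its group in both genes, at 14.71 and 11.86. For UCP3 and PPARGC1A, DL 63 dpc pool c was, at 4.17 and 6.96. UCP3 was above the ceiling in only 12 of the 18 fetal pools. These are descriptions over pools that share an array.

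The genes whose profiles over the 24 arrays were most like each member were taken from 6764 other genes by Pearson's r, which mostly records the 4 stages. For PDK4 they were HBEGF (0.980), ASB8 (0.975), ZFAND5 (0.974), PGK1 (0.971) and PPTC7 (0.971). For UCP3 they were LDHD (0.992), ATF4 (0.991), TMEM140 (0.989), LDHA (0.988) and HR (0.988). CPT1B had CD74 (0.988), SLA-DRB1 (0.986), TCEA3 (0.985), NRAP (0.984) and TPM1 (0.983), and PPARGC1A had CLDN7 (0.951), OAS1 (0.9504), CXCL2 (0.9496), KLF9 (0.948) and CEBPD (0.945). Many genes share these profiles: 331 exceeded 0.9 with UCP3, 282 with CPT1B, 214 with PDK4 and 91 with PPARGC1A.

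Other genes of the same pathways were counted in 6 lists, each gene by its brightest probe set and without the 4 members. Their medians stand beside those of all probe sets, which were 0.0043, 0.0020 and 0.0594 in the 3 steps. The counts are to be read against the shares of all probe sets, 22.3% higher and 22% lower in the first step, 8.88% and 9.4% in the second and 30.8% and 26.6% in the third.

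In the pyruvate dehydrogenase list, 10 of 15 genes were measured. From 91 dpc to the adult 7 rose and 2 fell (median 0.99). PDK3, another kinase of the complex, rose by 0.82 ± 0.19 from 35 to 63 dpc, fell by 0.72 to 91 dpc and rose by 3.95 ± 0.19 to the adult, when LDHA, the muscle-type lactate dehydrogenase, rose by 2.37 ± 0.05 and the phosphatase PDP2, which reverses the kinases, by 2.13 ± 0.53. LDHB, the heart-type subunit, fell by 1.05 from 63 to 91 dpc. DLD, a shared subunit of the complex, fell by 0.84 in the first step and rose by 0.79 in the second. In those steps 4 genes rose and 2 fell, then 4 rose and 3 fell (medians 0.11 and 0.06); PDK1 and PDK2 were not analysed here.

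In the carnitine shuttle list, 8 of 10 genes were measured. From 35 to 63 dpc 4 rose and 1 fell, from 63 to 91 dpc 2 rose, and after 91 dpc 5 rose, with none lower in the last 2 steps (also unadjusted; medians 0.72, 0.12 and 0.88). CRAT, the mitochondrial carnitine acetyltransferase, rose by 2.58 ± 0.15 in the first step and 2.45 ± 0.15 in the last. ACSL1, which activates long-chain fatty acids, rose in all 3 steps, by 0.99, 2.34 and 0.98. CPT1A, the liver form of the gate, rose by 0.74 from 63 to 91 dpc, and the acylcarnitine carrier SLC25A20 rose by 1.38 after 91 dpc. CPT1C, the brain form, fell by 1.52 from 35 to 63 dpc, over the step in which the neural markers went down as given above. At 63 dpc CPT1C was above the ceiling in 0 of 3 DL and 2 of 3 Pi pools, so its fall is set partly against background.

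In the beta-oxidation list, 16 of 17 genes were measured. In the first step 13 rose and 1 fell, in the second 10 rose and none fell (also unadjusted), and in the third 10 rose and 2 fell (medians 0.61, 0.47 and 0.51). ACADS, the short-chain acyl-CoA dehydrogenase, rose by 2.11 ± 0.18 in the first step and 2.77 ± 0.18 in the third, HADH by 1.52 and ECI1 by 1.40 in the first. ETFDH rose by 1.25, ACADVL by 1.21 and ACADM by 0.89 from 63 to 91 dpc, and ECI2 by 1.38 and HADHB by 0.87 after 91 dpc. This list also held breed differences: at 91 dpc, where CPT1B and PDK4 had their lower Pi pools, 5 of the 16 were lower in Pi and none higher (also unadjusted; median -0.37), and in adults 7 were lower and none higher (also unadjusted; median -0.41). Of all probe sets 1.38% were lower and 1.35% higher in Pi at 91 dpc, and 3.44% and 2.89% in adults. Among them HADHB differed by -0.61 at 91 dpc (adjusted p = 0.0375) and by -0.64 in adults (adjusted p = 0.0161). Adult arrays spread most about their group means (mean residual SD 0.674 in DL and 0.807 in Pi, at most 0.490 in a fetal group). When noisier arrays were given less weight, 0.542% of all probe sets were lower and 0.467% higher in adult Pi, and 2.72% and 2.64% at 91 dpc. The list was not counted with these weights. With arrays shifted to their hybridisation controls, which moved the median of all probe sets to -0.32 and -0.22, 10 and 11 of the 16 were lower in Pi, where 9.98% and 6.4% of all probe sets were. The earlier stages did not show this direction. At 35 dpc, in the deposited values, 3 of the 16 were higher in Pi and none lower (5 and 3 unadjusted, median -0.00013). Of all probe sets 1.61% were higher and 2.41% lower there. At 63 dpc none of the 16 passed (3 higher and 3 lower unadjusted), against 1.37% of all probe sets in either direction.

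Among uncoupling proteins and related carriers, 6 of 8 were measured, and UCP2 moved opposite to UCP3 after 91 dpc. UCP2, the broadly expressed uncoupling protein, had DL means of 5.74, 8.41, 7.98 and 2.48 at 35, 63 and 91 dpc and in the adult, and Pi means of 4.17, 8.57, 7.92 and 3.89. It rose by 3.53 ± 0.32 from 35 to 63 dpc (adjusted p = 3.44e-08) and fell by 4.76 after 91 dpc (SE 0.32, adjusted p = 3.58e-10); 3 of the 6 adult pools were not above the ceiling. The adenine nucleotide carrier SLC25A4, the muscle form, rose by 2.18 and then 1.27, while SLC25A6, another form, fell by 2.87 after 91 dpc. SLC25A30 rose by 2.30 in the first step and SLC25A14 by 1.16 in the last. Over the list 4 rose and 2 fell, then 1 rose and none fell (2 unadjusted), then 3 rose and 2 fell (medians 1.23, -0.41 and 0.29).

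For partners and upstream regulators of PGC-1, 26 of 38 genes were measured. In the 3 steps 10, 10 and 14 rose and 2, 1 and 5 fell (medians 0.28, 0.15 and 0.47), that is 38.5%, 38.5% and 53.8% higher and 7.69%, 3.85% and 19.2% lower. PRKAA2, the catalytic subunit of AMP-activated kinase that prevails in muscle, rose by 3.21 ± 0.15 in the first step, as did its upstream kinase STK11 by 1.74, and PRKAB2, a regulatory subunit, rose by 4.29 ± 0.29 after 91 dpc. The transcription factor FOXO3 rose by 1.22 in the first step and 4.28 ± 0.39 in the last, and the thyroid hormone receptor THRB by 4.68 ± 0.10 in the last. FOXO3 was above the ceiling in all 6 pools of 63 dpc but in only 1 of 6 at 35 dpc and 4 of 6 at 91 dpc, and THRB in 2 of 6 at 91 dpc. From 63 to 91 dpc PPARG rose by 1.90, PRKAG3, a kinase subunit of glycolytic muscle, by 1.39, and the retinoid receptor RXRG fell by 1.69. At 63 dpc PPARG was above the ceiling in 2 of 3 DL and 1 of 3 Pi pools. PRKAG3 was above it in 3 of 3 DL and 1 of 3 Pi pools there, and in 2 of 3 Pi pools at 91 dpc. PPARG, the adipocyte receptor, was higher in adult Pi than in adult DL by 3.72 ± 0.49 (adjusted p = 0.000174), at means of 6.14 and 2.42. Only 1 of the 3 DL pools was above the ceiling. Adipocyte markers in the adults averaged 8.67 to 8.97 in Pi and 8.13 to 8.85 in DL. Of these markers LEP was at background in all adult Pi pools but not in all adult DL pools. The part of fat content was not tested.

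Of genes known to respond to PPAR receptors, 7 of 14 were measured, and all 7 rose after 91 dpc (median 2.51). ANGPTL4, an inhibitor of lipoprotein lipase, rose by 2.04 ± 0.31 from 63 to 91 dpc and 3.73 ± 0.31 after it, the lipid droplet protein PLIN2 fell by 1.17 and then rose by 2.66, and the fatty acid transporter SLC27A1 rose by 2.57. Earlier, 4 rose and none fell (also unadjusted) in the first step, among them LPL by 1.85 and PNPLA2 by 1.67, and 4 rose and 1 fell in the second (medians 0.87 and 0.84). The mean of the adipocyte markers was higher at each later stage as well, and their part was not tested. LPL is itself one of those markers, and ACADVL is counted both here and in the beta-oxidation list, so the lists are not separate.

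The first-step counts of these lists depend on the scale. With each array shifted to its hybridisation controls, 0 rose and 9 fell in the pyruvate dehydrogenase list, 1 and 3 in the carnitine shuttle, 4 and 7 in beta-oxidation, 3 and 3 among the carriers, 2 and 14 among the PGC-1 partners, and 3 and 1 among the PPAR-responsive genes, where 8.73% of all probe sets were higher and 64.9% lower. After 91 dpc the same shift gave 7 and 2, 5 and 0, 9 and 4, 3 and 2, 11 and 6, and 7 and 0, where 23.2% of all were higher and 35% lower.

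**Figure D5:**
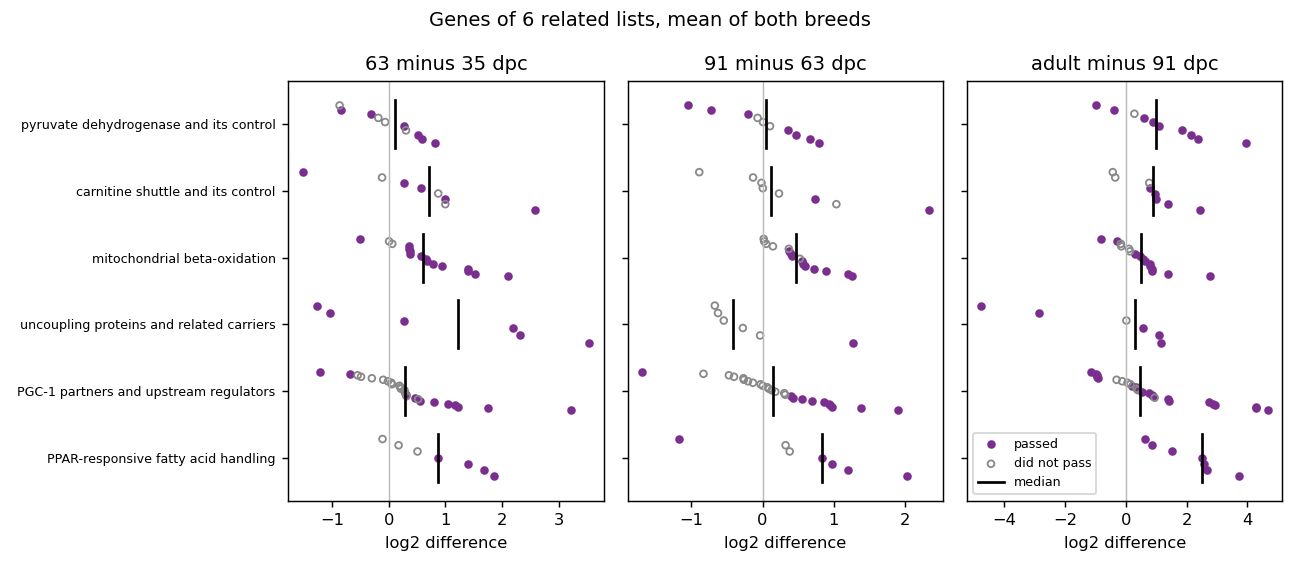
Change of each gene of the 6 lists at each step (horizontal axis, log2 difference, mean of both breeds; the 3 panels have their own scales), with filled dots for genes that passed, open dots for those that did not and black bars at the list medians. The PPAR-responsive genes lie above 0 after 91 dpc (median 2.51), and UCP2 is the lowest point among the carriers there, at -4.76.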

How the data were processed

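RNA of 24 pools, 3 in each of 8 groups of breed and stage, was measured on Affymetrix Porcine Genome Arrays. Per the labels' protocols, RNA isolated with TRI Reagent was cleared of DNA, purified with the RNeasy Kit and made into biotin-labelled cRNA. The deposited table gives each probe set a log2 intensity on every array; values run from 1.60 to 16.10, and after sorting all 24 columns are identical, so the authors' values are quantile-normalised, with a median of 5.43. GCOS 1.1.1 is listed, per the submitters' processing notes; the sources used here do not state how probes were summarised, how background was corrected or which log base was used. Arrays give no counting depth; 3 pools per group limit the precision.

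Gene names came from the platform annotation, which can be old: of the probe sets tested, 10069 have 1 symbol, 198 several and 13732 none. No genome build is named, so no coordinates are given, and probe and protein sequences were not used here. After 124 control probe sets were left out of 24123, limma 3.58.1 (R 4.3.3) fitted 1 mean per group to all 24 arrays, with eBayes and Benjamini-Hochberg adjustment over 23999 probe sets. Steps were averaged over the breeds and taken within each; breeds were compared at each stage. The script was tested on simulated data. Single values were also tested by exact permutation. Of each list the 3 genes with the largest change that passed in a step were named; the breed differences of HADHB and PPARG were picked after their values were seen. Pools with the same letter did not deviate together (84 pairs, correlations -0.077 to 0.091), so letters were not used as pairs. Alternatives were the fit of the compared groups, the letter as a block, array weights, a trended robust prior, no dim probe sets, rescaling to hybridisation controls, the other probe set, and leaving out each pool. The members and lists were chosen with earlier results of these data known. Python 3.11.15 with matplotlib 3.10.9 drew the plots.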

Additional observations from a re-analysis of the deposited data

How the results depend on the processing

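Of 64 results on the 4 genes, all kept their call under the replicate block of pool letters, as did the list counts; the block gave, for example, an adjusted p of 0.00246 for the PDK4 change of -1.22 from 35 to 63 dpc. Beyond the values given above, results near the threshold moved across it, and the cause was not tested. The main fit gave each probe set a spread shared by all groups, while the mean residual SD of the arrays was 0.33 at 35 dpc and 0.74 in adults. Fitting only the compared groups, the change from 35 to 63 dpc was 1.12 for UCP3 in DL and -1.33 for PDK4 in Pi, and the change after 91 dpc was 1.90 for PPARGC1A in DL, none of which then passed. The same fit made calls of UCP3 in Pi from 35 to 63 dpc (0.33) and of CPT1B after 91 dpc (0.45 in both breeds and 0.71 in Pi). The permutation p of 0.01 for CPT1B after 91 dpc was not adjusted over probe sets and is not a call. The PDK4 fall in DL from 35 to 63 dpc passed with array weights (-1.07), with the trended robust prior or without dim probe sets (-1.11 each), and rescaled to the controls (-1.61). Rescaling reversed UCP3 from 35 to 63 dpc (-0.087), lost it in DL (0.62), lost CPT1B in Pi from 63 to 91 dpc (0.85), and called PPARGC1A lower from 35 to 63 dpc in both breeds (-0.88) and in Pi (-1.27). The other probe set lost PDK4 from 35 to 63 dpc (-0.052, and 0.0058 in Pi, a reversal) and from 63 to 91 dpc (1.01; 1.49 in DL, 0.52 in Pi), and UCP3 from 35 to 63 dpc (0.034; 0.051 in DL). Rescaling also moved 14 of the 36 list counts by over 1.5 times: higher and lower in the first step to 0 and 9 (pyruvate dehydrogenase), 1 and 3 (carnitine shuttle), 4 and 7 (beta-oxidation), 2 and 14 (PGC-1 partners), and lower to 1 (PPAR-responsive); in the second, higher to 2 (pyruvate dehydrogenase) and 6 (beta-oxidation), lower to 2 (carriers) and 2 (PGC-1 partners); in the third, lower to 4 (beta-oxidation).

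Leaving out 1 pool at a time changed 19 of 1536 calls. The ranges of the results concerned were -1.44 to -0.73 for PDK4 in DL and -1.54 to -0.91 in Pi from 35 to 63 dpc, 0.50 to 0.89 for UCP3 in both breeds and 0.67 to 1.44 in DL at that step, 0.96 to 1.23 for CPT1B in Pi from 63 to 91 dpc, and 0.38 to 0.52 (both breeds) and 0.57 to 0.84 (Pi) for CPT1B after 91 dpc. Values that passed neither before nor after changed sign in 49 of these fits and in 15 under the other settings, at a size of 0.79 at most; their direction was not called. Signal near background limits UCP3 before birth and the dimmer PDK4 probe set.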
